A study of Arabidopsis thaliana with 6 samples.

Results

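The comparison described here sets RNA, labelled as from leaf, of Arabidopsis thaliana kept for 12 h with 100 µM melatonin against RNA of plants kept for 12 h without melatonin. It uses 4 of the 6 libraries of the series, which were chosen by the labelled treatment: 2 libraries at 100 µM and 2 controls. The 2 other libraries came from plants kept for 12 h with 1000 µM melatonin, and their values are given beside the results. All plants were labelled wild type, with no further strain name, and were 7 days old, raised on MS plates, when treatment began. The labelled tissue is leaf in every library, although the title of the series speaks of root growth. All libraries were taken at 12 h, so the order in which processes changed was not measured, and a change at 100 µM is a change seen at the lower of 2 doses. Whether both libraries of a group stem from different plants or plates is not stated in the labels. The p-values therefore rest on the spread within pairs of libraries, and that spread may be technical.

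Melatonin is an indoleamine that plants and animals make from tryptophan by way of serotonin. In plants it is applied from outside in studies of stress tolerance and growth, and high doses are known to slow growth. Foreign small molecules in general switch on a detoxification programme of cytochromes P450, glutathione transferases, glycosyltransferases and transporters, part of which is run by TGA transcription factors that recognise the letters TGACG. Chaperone genes are run by heat stress transcription factors that recognise heat shock elements, which are repeats of GAA and its reverse complement.

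The 4 compared libraries held 6641570 and 6410046 counts at 100 µM, against 6784239 and 7333967 in the controls. Of 32678 genes in the table, 18380 had enough counts to be tested. On the first principal component, with 62.3% of the variance, the controls lay at -36.8 and -36.6, the 100 µM libraries at -10.2 and -8.35, and the 1000 µM libraries at 53.7 and 38.3. The mesophyll markers RBCS1A (AT1G67090), the small subunit of Rubisco, and CAB1 (AT1G29930), a light-harvesting protein, stood at 10933 and 10586 CPM (counts-per-million, on TMM-adjusted library totals) and 2525 and 2617 CPM at 100 µM, against 10666 and 11649 CPM and 2819.5 and 2763 CPM in the controls. The libraries also held transcripts of genes listed as root markers: their summed level over 15 genes was 3161 and 3222 CPM at 100 µM, against 3302 and 3429 CPM in the controls, most of it from PYK10 (AT3G09260), which encodes a beta-glucosidase abundant in roots and hypocotyls. None of the 12 root markers tested passed the threshold at 100 µM, with a median log2 change of -0.14, and the smallest adjusted p among them was 0.222, for PER64 (AT5G42180). Of 4 shoot apex markers, WUS and CLV3 had 0 counts in the 4 libraries, but the other 2 were detected. The 4 summed to 21.77 and 24.23 CPM at 100 µM, against 23.43 and 22.68 CPM in the controls. The 2 detected markers were tested and did not pass. In tissue RNA of this kind, fewer cells of a type and less RNA per cell cannot be told apart.

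At 100 µM, 610 genes (3.32% of the 18380 tested) passed an adjusted p of 0.05 in edgeR's quasi-likelihood test with Benjamini-Hochberg adjustment, which is what "called" means here. Of these, 329 (1.79%) rose and 281 (1.53%) fell. The changes were small: the median absolute log2 change of the called genes was 0.65, and 479 of them changed by less than 2-fold. Each of the 610 had both 100 µM libraries on the same side of both controls, an arrangement also seen upward in 25.4% and downward in 25.0% of all tested genes. A stricter core of 78 genes (0.424%) was still called when each of the 4 compared libraries was left out in turn, 61 (0.332%) of them up and 17 (0.0925%) down. At the other end, 359 of the 610 calls were lost in every one of these 4 fits, and the count of called genes was 181 without control replicate 1, 191 without control replicate 2, 117 without 100 µM replicate 1 and 101 without 100 µM replicate 2. For each called gene named, the libraries whose omission ended its call are given, and a named call with none given was kept in all 4 fits.

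**Figure D1:**
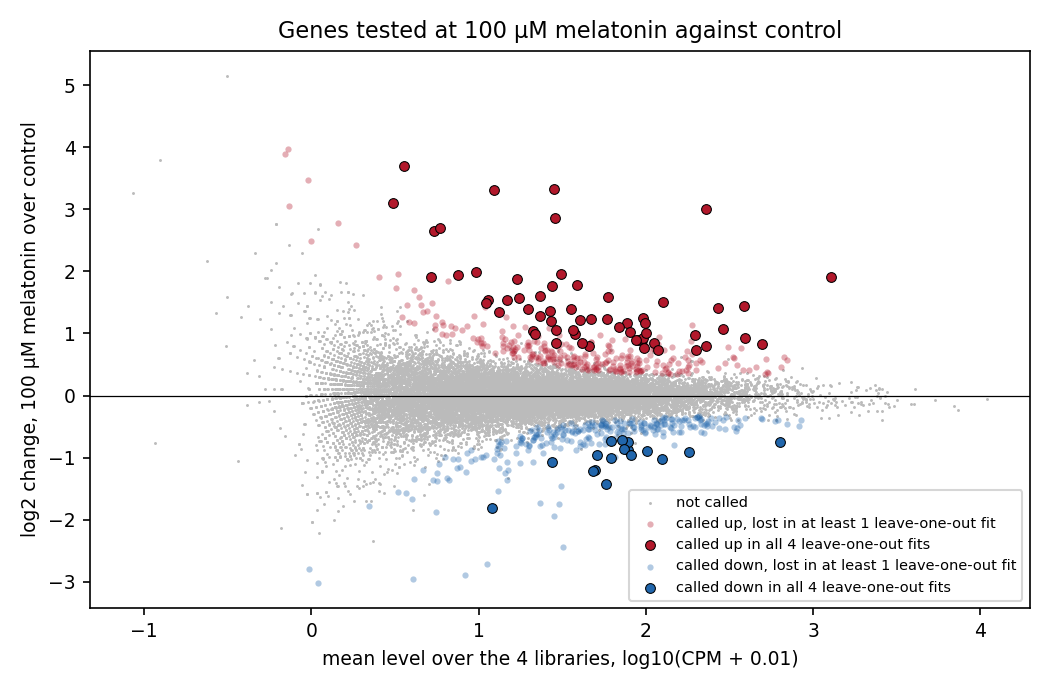
The log2 change of each tested gene at 100 µM melatonin over the control is plotted against its mean level over the 4 libraries, on a log10(CPM + 0.01) scale. Dark outlined points are the 61 rises and 17 falls kept in all 4 leave-one-out fits, pale points the other called genes, and grey points genes not called. Among the kept genes rises outnumber falls.

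Among the 78 stable genes, the largest rise was that of ELIP1 (AT3G22840), an early light-induced protein of the thylakoid, with 6.86 and 6.37 CPM at 100 µM, against 0.291 and 0.683 CPM in the controls (log2 change 3.70 ± 0.39, SE). ELIP2 (AT4G14690), its close relative, had 5.67 and 5.44 CPM at 100 µM and 0.291 and 0.957 CPM in the controls. Both had only a few counts in the controls, and the 100 µM libraries of each lay close together and far above them. AT3G59930, a defensin-like protein, had 46.8 and 55.6 CPM at 100 µM, against 3.35 and 6.7 CPM in the controls. AT3G13310, a chaperone of the DnaJ type, had 409.8 and 399.7 CPM at 100 µM and 47 and 53.4 CPM in the controls (log2 change 3.01 ± 0.13, adjusted p = 4.93e-10), the smallest adjusted p of the 30 genes in the plot of stable changes. The cupin protein gene AT3G04300 had 8.8 and 9.94 CPM at 100 µM, against 1.31 and 1.64 CPM in the controls, and the cytochrome P450 gene CYP71B22 (AT3G26200) 16.9 and 14 CPM at 100 µM against 4.51 and 3.28 CPM in the controls. For all of these the gap between the groups was wider than the distance between the libraries of either group.

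CNI1 (AT5G27420), a ubiquitin ligase of the response to the balance of carbon and nitrogen, stood at 47.4 and 51.4 CPM at 100 µM, against 11.2 and 14.2 CPM in the controls (log2 change 1.95 ± 0.18, adjusted p = 7.75e-06). ATGLR1.2 (AT5G48400), a glutamate receptor-like channel, had 8.5 and 7.92 CPM at 100 µM and 2.33 and 2.05 CPM in the controls. AT1G74010, annotated as a calcium-dependent phosphotriesterase, had 26.8 and 26.7 CPM at 100 µM, against 5.53 and 8.88 CPM in the controls. The controls of the last gene differed more from each other than its 100 µM libraries did, yet both lay far below them. AT1G70420, annotated as a putative DNA ligase-like protein, rose by 1.95 on the log2 scale, and AT4G12490, a lipid-transfer protein, by 1.78. The RNA gene AT1G15405 and the uncharacterised AT2G31141 also belong to this group, with 15.8 and 29.4 CPM and 6.56 and 13.8 CPM at 100 µM, against 2.33 and 2.19 CPM and 1.16 and 1.91 CPM in the controls. These 2 genes and the chloroplast gene ATCG00020 had the widest spread between the 100 µM libraries, with 100 µM replicate 2 higher in each.

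The largest of the 17 stable falls was that of AT1G29025, a protein with calcium-binding EF hands, which had 5.22 and 5.44 CPM at 100 µM, against 17 and 20.6 CPM in the controls (log2 change -1.82 ± 0.22, adjusted p = 8.92e-05). GASA6 (AT1G74670), a gibberellin-regulated peptide, had 27 and 36 CPM at 100 µM and 86.3 and 83.4 CPM in the controls. AT4G15390, an acyltransferase of the HXXXD type, had 30 and 28.1 CPM at 100 µM, against 74.1 and 60.8 CPM in the controls. No 100 µM library of these 3 genes came within reach of a control. Cell wall genes made up 6 of the 15 largest stable falls: XTH33, XTH15, XTH16, CSLC04, AGP17 and AGP18. The remaining 6 were HSP101, THAS1, CYP708A2, SLAH3, ASN1 and the DnaJ protein gene AT1G72416, which had 50.1 and 59.2 CPM at 100 µM, against 108 and 93.5 CPM in the controls. SLAH3 (AT5G24030), an anion channel that passes nitrate, had 57.6 and 54.2 CPM at 100 µM and 112 and 105 CPM in the controls.

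**Figure D2:**
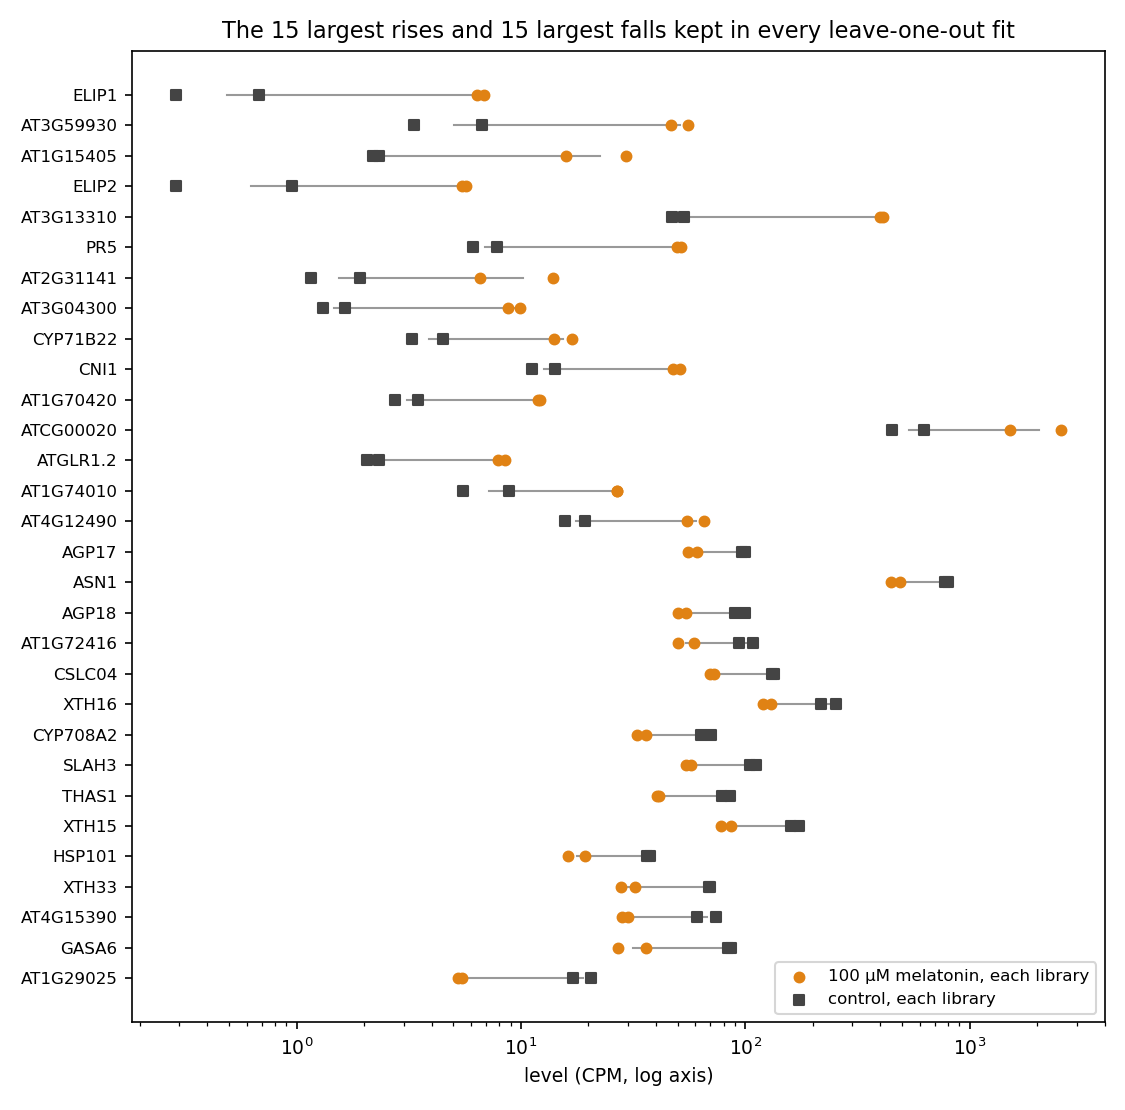
Each row is a gene, with its level in CPM on a log axis in the 2 libraries at 100 µM melatonin (orange circles) and in the 2 controls (dark squares), and a line between the group means. The 15 largest rises, from ELIP1 down to AT4G12490, and the 15 largest falls, from AGP17 down to AT1G29025, are shown among the genes kept in all 4 leave-one-out fits; in no row do the groups overlap.

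Lists of genes of 17 processes were examined next. Members that passed were most frequent, against 3.32% of all tested genes, in the lists of heat shock (6 of 18, all down), the PIF and shade response (4 of 12, all down), iron deficiency (6 of 22, all up), the carbonyl and xenobiotic response (5 of 20, all up), light stress (2 of 8, both up), low energy (3 up and 1 down of 16) and salicylic acid and immunity (5 of 21, all up). No member passed in the lists of jasmonate (17 tested), endoplasmic reticulum folding (12) and mitochondrial dysfunction (8). The jasmonate list did not hold PDF1.2, a marker of jasmonate and ethylene that was called up and is described with the salicylic acid genes. The median log2 change was -0.61 for heat shock, -0.44 for the PIF and shade response and 0.56 for the carbonyl and xenobiotic response, beside -0.01 for all tested genes. For the other 14 lists it lay between -0.25 and 0.34.

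**Figure D3:**
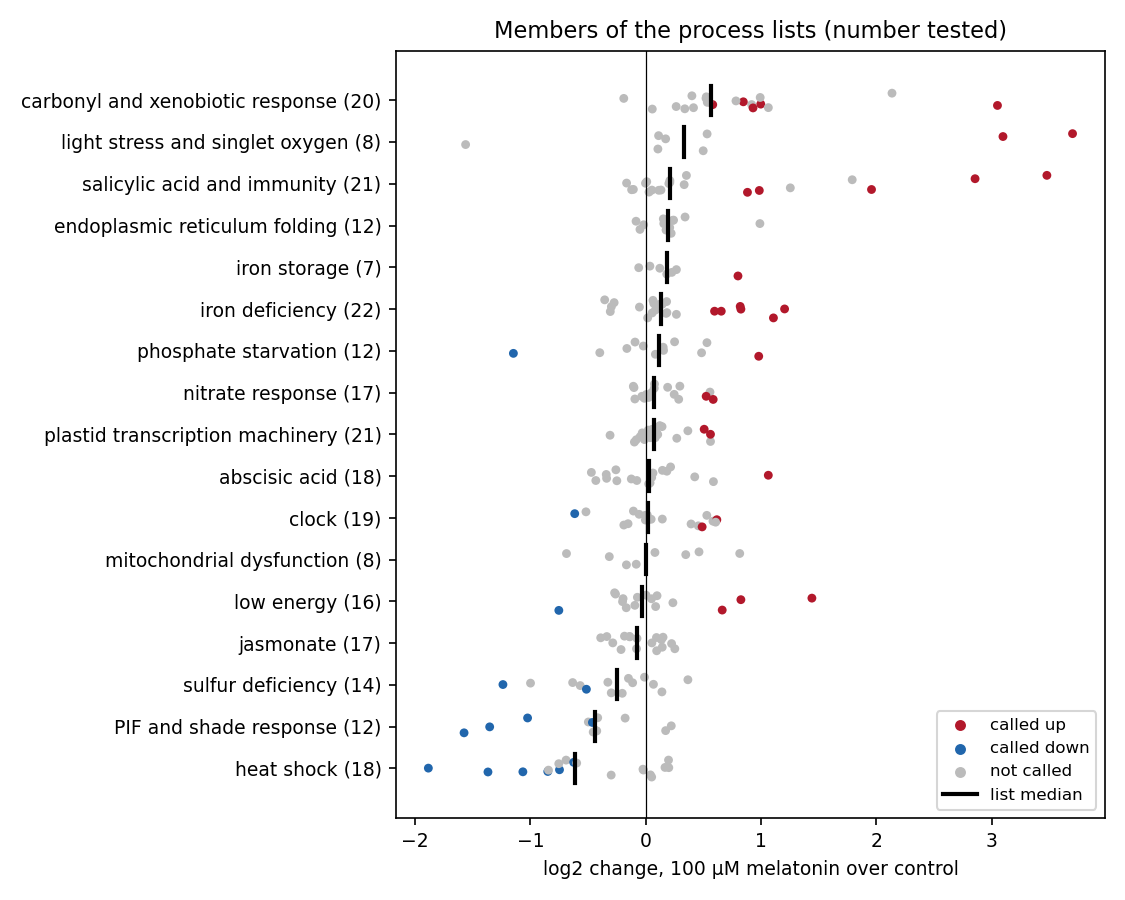
Each point is a tested member of a process list, placed by its log2 change at 100 µM melatonin over the control, with red for called up, blue for called down and grey for not called. Black bars are list medians, from 0.56 for the carbonyl and xenobiotic response at the top to -0.61 for heat shock at the bottom, and the number of members tested stands in brackets.

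The carbonyl and xenobiotic response was higher at 100 µM in summed level, with 678.7 and 650.0 CPM over its 20 genes, against 459.4 and 464.9 CPM in the controls. Of the 20, 5 were called up and 0 down, beside 1.79% up and 1.53% down of all tested genes, and 19 had a positive log2 change. GSTU7 (AT2G29420), a tau-class glutathione transferase, had 54.6 and 51.9 CPM at 100 µM, against 30.7 and 28.6 CPM in the controls (log2 change 0.85 ± 0.12, adjusted p = 0.000453), and GSTU1 (AT2G29490) had 11.3 and 12.9 CPM at 100 µM and 6.55 and 6.15 CPM in the controls. CYP81D11 (AT3G28740), a cytochrome P450 of this response, had 53.8 and 46.4 CPM at 100 µM, against 22.8 and 27.3 CPM in the controls. AER (AT5G16970), an alkenal reductase that disarms reactive carbonyls, had 264 and 241 CPM at 100 µM and 177 and 160.4 CPM in the controls. The groups were apart in each, by the largest factor in CYP81D11. The fifth call, GSTU3 (AT2G29470), rested on 17 counts at 100 µM and 2 in the controls. The calls of GSTU1 and GSTU3 ended without any 1 of the 4 compared libraries (adjusted p of 0.0591 to 0.503). That of AER ended without control replicate 2, 100 µM replicate 1 or 100 µM replicate 2 (adjusted p of 0.0727 to 0.161). The 2 calls kept in all 4 fits were those of GSTU7 and CYP81D11. SCL14 (AT1G07530), the co-regulator that works with TGA factors, had 60.2 and 62.4 CPM at 100 µM and 55 and 62.9 CPM in the controls (adjusted p = 0.863), and the transporter gene ABCG40 (AT1G15520) had 1.19 and 2.8 CPM at 100 µM against 0.728 and 1.23 CPM in the controls (adjusted p = 0.548). At 1000 µM the same list summed to 1887 and 1531 CPM and all 20 members were called up against the control (15.2% of all tested genes were called up there), a comparison that shares the controls.

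The stretches of 250 bases before the annotated starts of these genes were read from RefSeq's TAIR10.1 assembly, since the TGA motif TGACG is the textbook element of this response. Shown 5′ to 3′ on the strand of the gene, with matches to TGACG on either strand in capitals, are the promoters of the 4 called members other than GSTU3:
GSTU7 promoter, chr2:12618900-12619149, minus strand: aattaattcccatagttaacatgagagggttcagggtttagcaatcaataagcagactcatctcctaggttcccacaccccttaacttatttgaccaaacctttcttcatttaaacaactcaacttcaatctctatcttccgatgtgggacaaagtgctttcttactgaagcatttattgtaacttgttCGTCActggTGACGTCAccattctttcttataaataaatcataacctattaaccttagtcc
GSTU1 promoter, chr2:12632539-12632788, minus strand: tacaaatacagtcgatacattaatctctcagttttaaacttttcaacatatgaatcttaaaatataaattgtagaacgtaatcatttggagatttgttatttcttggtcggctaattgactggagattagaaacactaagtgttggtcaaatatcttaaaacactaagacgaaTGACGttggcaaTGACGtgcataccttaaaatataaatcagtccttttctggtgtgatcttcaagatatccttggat
CYP81D11 promoter, chr3:10790554-10790803, minus strand: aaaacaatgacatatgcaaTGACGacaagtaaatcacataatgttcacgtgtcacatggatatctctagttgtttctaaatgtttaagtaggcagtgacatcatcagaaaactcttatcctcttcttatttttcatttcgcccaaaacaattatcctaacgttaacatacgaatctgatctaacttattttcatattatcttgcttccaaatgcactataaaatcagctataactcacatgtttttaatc
AER promoter, chr5:5578087-5578336, minus strand: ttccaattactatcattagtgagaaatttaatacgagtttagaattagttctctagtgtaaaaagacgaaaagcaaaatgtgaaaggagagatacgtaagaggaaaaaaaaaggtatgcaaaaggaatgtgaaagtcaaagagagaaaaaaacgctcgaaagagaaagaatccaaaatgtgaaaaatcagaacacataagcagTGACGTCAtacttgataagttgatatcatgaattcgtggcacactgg
In GSTU7 and AER a match on one strand overlaps a match on the other, which spells TGACGTCA. TGACG occurred on either strand in 14 of the 20 promoters of the list, the 5 called members among them, in 19.4% of 17996 promoters of all tested genes, in 24.2% of 293 promoters of genes called up and in 16.4% of 280 promoters of genes called down. TGACG was not alone in this: the W-box, TTGACC or TTGACT, occurred in 13 of the 20. Its shares were 28.1% for all tested genes, 35.8% for genes called up and 26.4% for genes called down. The list was drawn up around genes known to respond through TGA factors, so its share describes the list and was not tested.

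Calls in whole families of detoxification and secondary metabolism were mostly upward. These families overlap the list above, whose calls included the glutathione transferases GSTU1, GSTU3 and GSTU7 and the cytochrome P450 CYP81D11. Their counts are therefore not separate from those of that list. Of 41 glutathione transferases tested, 6 were called up and 0 down, of 102 UDP-glycosyltransferases 7 were up and 0 down, and of 150 cytochromes P450 7 were up and 4 down, beside 1.79% up and 1.53% down of all tested genes. Without control replicate 1, control replicate 2, 100 µM replicate 1 and 100 µM replicate 2, in that order, the rises became 2, 2, 1 and 1 glutathione transferases, 4, 5, 3 and 3 UDP-glycosyltransferases and 3, 4, 2 and 3 cytochromes P450. UGT73B2 (AT4G34135), a flavonol glucosyltransferase, had 83.1 and 80.6 CPM at 100 µM, against 33.6 and 35.8 CPM in the controls (log2 change 1.24 ± 0.10, adjusted p = 2.18e-06). Its neighbour UGT73B1 (AT4G34138) had 182 and 167 CPM at 100 µM and 113 and 116 CPM in the controls. UGT84A2 (AT3G21560), which glucosylates sinapate, had 47.9 and 51 CPM at 100 µM, against 21 and 26.2 CPM in the controls. In these 3 genes no library of one group fell among those of the other. MYB4 (AT4G38620), a repressor of phenylpropanoid genes, had 52.9 and 51.1 CPM at 100 µM and 17.9 and 21.7 CPM in the controls (log2 change 1.39 ± 0.16, adjusted p = 6.39e-05). ABCG1 (AT2G39350), a transporter of suberin building blocks, had 54.7 and 57.8 CPM at 100 µM, against 26.8 and 21.9 CPM in the controls, and was the single call among 45 ABC transporters. GSTU19 (AT1G78380) and GSTU5 (AT2G29450) rose by 0.61 and 0.58 on the log2 scale. Leaving out any 1 of the 4 compared libraries ended the call of GSTU19, with adjusted p of 0.0768 to 0.171. That of UGT73B1 ended without 100 µM replicate 1 (adjusted p of 0.0731). That of GSTU5 ended without control replicate 1, 100 µM replicate 1 or 100 µM replicate 2 (adjusted p of 0.0656 to 0.0905).

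The heat shock list fell in part at 100 µM: the summed level of its 25 genes was 289.6 and 266.3 CPM, against 396.1 and 394.0 CPM in the controls, and 6 of 18 tested members were called down and 0 up (3.32% of all tested genes were called), while 5 had a positive log2 change. The wider family of heat shock and DnaJ proteins by product name, with 172 tested, had 3 called up and 7 down, a median log2 change of -0.01 and a summed level of 11450 and 11310 CPM at 100 µM, against 10540 and 10790 CPM in the controls. HSFA2 (AT2G26150), a heat stress transcription factor that is itself heat-induced, had 2.68 and 2.02 CPM at 100 µM, against 9.46 and 8.06 CPM in the controls (log2 change -1.88 ± 0.30, adjusted p = 0.00159). HSP101 (AT1G74310), which pulls aggregated proteins apart, had 19.2 and 16.2 CPM at 100 µM and 37.5 and 36.6 CPM in the controls. HSP90.1 (AT5G52640), a chaperone of signalling proteins, had 31.8 and 28.4 CPM at 100 µM, against 52.4 and 48.8 CPM in the controls. In all 3 the 100 µM libraries lay clearly below the controls. HSP70 (AT3G12580), a cytosolic chaperone, had 98.9 and 79.2 CPM at 100 µM and 138 and 137 CPM in the controls. MBF1C (AT3G24500), a co-activator of the heat response, had 9.69 and 10.6 CPM at 100 µM, against 17.8 and 18.7 CPM in the controls, and BAG6 (AT2G46240), a co-chaperone, had 4.32 and 3.11 CPM at 100 µM, against 8.59 and 10.7 CPM in the controls. As a ratio of the group means, the difference was smallest in HSP70. With any 1 of the 4 compared libraries left out, the calls of HSP90.1 and HSP70 ended (adjusted p of 0.0566 to 0.521). That of HSFA2 ended without 100 µM replicate 2 (adjusted p of 0.076). Those of MBF1C and BAG6 ended without control replicate 2, 100 µM replicate 1 or 100 µM replicate 2 (adjusted p of 0.0779 to 0.264). The number of members called was 4 without control replicate 1, 2 without control replicate 2, 2 without 100 µM replicate 1 and 1 without 100 µM replicate 2, the last being HSP101.

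The 12 members not called were mixed. Hsp70b (AT1G16030) had 5.07 and 6.06 CPM at 100 µM and 5.38 and 5.88 CPM in the controls, and HSFA7A (AT3G51910) had 55.2 and 59.2 CPM at 100 µM and 47.6 and 52.1 CPM in the controls (adjusted p = 0.509). HSP17.6A (AT5G12030) and HSP17.4 (AT3G46230), small heat shock proteins, stood at low levels in both groups, with 1.94 and 1.71 CPM and 2.68 and 1.4 CPM at 100 µM, against 2.18 and 1.09 CPM and 2.77 and 1.23 CPM in the controls. Across the 3 doses the called genes split. HSP90.1 averaged 50.6 CPM in the controls, 30.1 CPM at 100 µM and 100.4 CPM at 1000 µM, and HSP70 137 CPM, 89.1 CPM and 240.3 CPM in the same order of doses. HSFA2 and HSP101 were about as low at 1000 µM, with 2.91 and 2.15 CPM and 18.8 and 15.9 CPM, as at 100 µM. In the contrast of 1000 µM with the control, 7 of the 18 members were called up and 3 down (15.2% and 14.5% of all tested genes). The contrast of 1000 µM with 100 µM shares the 100 µM libraries, which were low in the called genes. There, 10 of the 18 members were called up and 0 down (8.65% and 7.3% of all tested genes). Over all genes, the chi-square per degree of freedom between libraries of a group was 1.94 for the controls, 1.84 at 100 µM and 5.6 at 1000 µM, so the 1000 µM pair was the least alike, as the plot of the called heat shock genes also shows for HSP90.1 and HSP70.

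**Figure D4:**
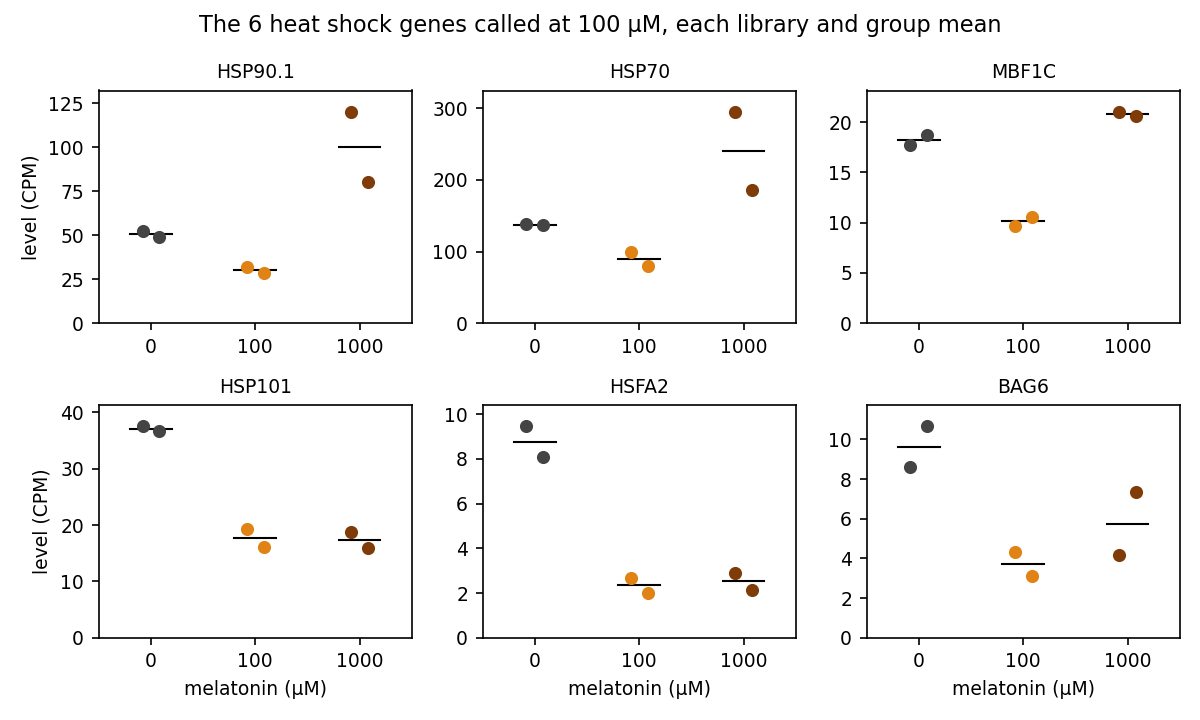
Each panel is a heat shock gene called at 100 µM, with its level in CPM in each library (points) and the group mean (line) at 0, 100 and 1000 µM melatonin. All 6 were lower at 100 µM than in the controls; at 1000 µM HSP90.1 and HSP70 stood above the controls and HSFA2 and HSP101 remained below them.

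The heat shock element was searched for as GAANNTTC or TTCNNGAA on either strand in the same 250 bases. It occurred in 8 of the 18 promoters of tested heat shock genes and in 15.7% of the 17996 promoters, in 2 of the 6 called members (HSFA2 and BAG6) and in 6 of the 12 not called. The 2 promoters that held it are given on the strand of the gene, 5′ to 3′, with matches in capitals, because they let the called genes be compared:
HSFA2 promoter, chr2:11135374-11135623, plus strand: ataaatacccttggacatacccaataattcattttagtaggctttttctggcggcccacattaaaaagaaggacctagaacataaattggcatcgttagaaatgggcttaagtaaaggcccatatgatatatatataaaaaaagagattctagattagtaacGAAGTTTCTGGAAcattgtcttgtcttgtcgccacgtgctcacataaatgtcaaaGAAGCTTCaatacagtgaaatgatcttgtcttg
BAG6 promoter, chr2:18985883-18986132, plus strand: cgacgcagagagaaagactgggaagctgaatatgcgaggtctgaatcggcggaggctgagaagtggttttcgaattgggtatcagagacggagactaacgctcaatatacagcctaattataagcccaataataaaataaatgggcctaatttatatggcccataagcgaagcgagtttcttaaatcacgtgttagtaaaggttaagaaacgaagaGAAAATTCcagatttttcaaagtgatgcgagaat
HSFA2 had 3 matches, of which 2 overlap, and BAG6 had 1. HSP101, HSP90.1, HSP70 and MBF1C had no match to these letters in this window.

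Iron deficiency genes rose in part, with 6 of 22 called up and 0 down, beside 1.79% up and 1.53% down of all tested genes. The 6 called members comprised all 4 of the basic helix-loop-helix factors bHLH38 (AT3G56970), bHLH39 (AT3G56980), BHLH100 (AT2G41240) and BHLH101 (AT5G04150), which switch on iron uptake, together with AT1G47400 and AT1G47395. BHLH101 had 35 and 40.4 CPM at 100 µM, against 16.9 and 15.9 CPM in the controls (adjusted p = 8.83e-05). bHLH38 had 27.6 and 22.1 CPM at 100 µM and 12.8 and 15.3 CPM in the controls. AT1G47400 had 27.7 and 24.1 CPM at 100 µM, against 9.75 and 14.2 CPM in the controls. The groups stood well apart in BHLH101 and nearer to each other in bHLH38. The genes of uptake itself did not pass: IRT1 (AT4G19690), the iron transporter of the root epidermis, had 15.4 and 6.06 CPM at 100 µM and 10.9 and 8.2 CPM in the controls (adjusted p = 0.843), and FRO2 (AT1G01580), the ferric reductase, 2.83 and 1.09 CPM at 100 µM against 1.75 and 3.01 CPM in the controls. In both of these the groups overlapped. Nor did the regulators FRU (AT2G28160), PYE (AT3G47640) and BTS (AT3G18290) pass, with log2 changes of -0.05, 0.06 and 0.12. FER1 (AT5G01600), a ferritin that stores iron and is known to rise with iron supply, had 55.8 and 60 CPM at 100 µM, against 35.5 and 31 CPM in the controls (log2 change 0.80 ± 0.11, adjusted p = 0.000557), and was the single call among 7 iron storage genes. Genes of the deficiency list and the main ferritin thus moved in the same direction. The call of bHLH38 ended without control replicate 1, 100 µM replicate 1 or 100 µM replicate 2 (adjusted p of 0.0699 to 0.292). Those of bHLH39 and BHLH100 ended without control replicate 2, 100 µM replicate 1 or 100 µM replicate 2 (adjusted p of 0.097 to 0.355). That of AT1G47400 ended without 100 µM replicate 1 (adjusted p of 0.0525). That of AT1G47395 ended without control replicate 1 or 100 µM replicate 1 (adjusted p of 0.164 to 0.311). The count of called members was 4 without control replicate 1, 4 without control replicate 2, 1 without 100 µM replicate 1 and 3 without 100 µM replicate 2. AT1G47400 and AT1G47395 are neighbours with similar products, and bHLH38 and bHLH39 are also adjacent, so reads may be shared among them.

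Of the 21 salicylic acid and immunity genes tested, 5 were called up and 0 down, beside 1.79% up and 1.53% down of all tested genes. PR5 (AT1G75040), a thaumatin-like protein of the defence response, had 49.5 and 51.6 CPM at 100 µM, against 6.11 and 7.79 CPM in the controls (log2 change 2.85 ± 0.16, adjusted p = 2.07e-08). EDS16 (AT1G74710), the isochorismate synthase of salicylic acid synthesis, had 20 and 22.4 CPM at 100 µM and 10.3 and 12.6 CPM in the controls. PBS3 (AT5G13320), which acts after it in the same pathway, had 5.07 and 5.44 CPM at 100 µM, against 1.46 and 1.23 CPM in the controls. Of these 3 genes PR5 was separated from the controls by the widest margin. FRK1 (AT2G19190), a receptor-like kinase induced by bacterial flagellin, had 7.61 and 10.9 CPM at 100 µM and 4.37 and 4.92 CPM in the controls. PDF1.2 (AT5G44420), a defensin that serves as a marker of jasmonate and ethylene, had 23 counts at 100 µM and 2 in the controls, a ratio of 12.4 with an exact 95% counting interval of 3.07 to 109. The calls of PBS3 and PDF1.2 ended without any 1 of the 4 compared libraries (adjusted p of 0.0723 to 0.239). That of EDS16 ended without control replicate 1, 100 µM replicate 1 or 100 µM replicate 2 (adjusted p of 0.0824 to 0.198). That of FRK1 ended without control replicate 1, control replicate 2 or 100 µM replicate 2 (adjusted p of 0.114 to 0.394). The upstream regulators EDS1 (AT3G48090), PAD4 (AT3G52430) and NPR1 (AT1G64280) had log2 changes of 0.01 for PAD4, 0.21 for NPR1 and 0.00 in size for EDS1, with adjusted p of 0.99, 0.47 and 0.995. Of the 48 WRKY factors, many of which answer salicylic acid, 1 (2.1%) was called, no more than the 3.32% of all tested genes. It was WRKY6 (AT1G62300), with 47.6 and 48.3 CPM at 100 µM and 31.1 and 34.7 CPM in the controls. This call ended without any 1 of the 4 compared libraries.

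Counts in larger families of the cell surface and of defence were set beside 1.79% up and 1.53% down of all tested genes. Among 208 receptor-like kinases 7 were up and 3 down, near those shares, with a median log2 change of -0.04. AT3G22060, of the receptor-like protein kinase family, had 140.5 and 131 CPM at 100 µM, against 55.6 and 58.4 CPM in the controls, AT5G48540 27 and 25.5 CPM at 100 µM against 7.57 and 9.98 CPM in the controls, and AT1G51820, a leucine-rich repeat kinase, 31.5 and 25.6 CPM at 100 µM against 12.2 and 9.57 CPM in the controls. These 3 calls were kept in all 4 leave-one-out fits, and in each the groups were far apart. Of 57 lipid-transfer proteins, 4 were up and 3 down, and the rises became 2, 3, 2 and 1 and the falls 3, 1, 0 and 1 without control replicate 1, control replicate 2, 100 µM replicate 1 and 100 µM replicate 2, in that order. EARLI1 (AT4G12480), next to AT4G12490 and similar to it, had 462 and 472 CPM at 100 µM, against 284 and 267 CPM in the controls. AT4G12545, of the same family, went the other way, with 14.8 and 18.3 CPM at 100 µM and 32.5 and 58.4 CPM in the controls, the controls differing widely. Of 17 chitinases and glucanases 3 were up and 1 down, none of them without any 1 of the 4 compared libraries, among them EP3 (AT3G54420) and CHIA (AT5G24090) with log2 changes of 0.86 and 0.78. Of 50 class III peroxidases 4 were up and 3 down, and with the same libraries left out in the same order 1, 0, 0 and 0 were up and 2, 0, 0 and 1 down. Of the peroxidases, Prx37 (AT4G08770) rose by 0.63 and AT2G18980 fell by 1.73 on the log2 scale. AT2G18980 had 11.3 and 10.4 CPM at 100 µM and 19.1 and 52.6 CPM in the controls, which lay far apart. Leaving out any 1 of the 4 compared libraries ended the calls of EP3, CHIA and Prx37, with adjusted p of 0.0533 to 0.187. That of EARLI1 ended without 100 µM replicate 1 or 100 µM replicate 2 (adjusted p of 0.0506 to 0.069). That of AT4G12545 ended without 100 µM replicate 1 (adjusted p of 0.0591). That of AT2G18980 ended without control replicate 2, 100 µM replicate 1 or 100 µM replicate 2 (adjusted p of 0.0903 to 0.147). The 141 disease resistance proteins had 2 calls, both down.

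SUC2 (AT1G22710), the transporter that loads sucrose into phloem companion cells, had 375 and 406 CPM at 100 µM, against 181 and 189 CPM in the controls (log2 change 1.08 ± 0.10, adjusted p = 9.01e-06). No library of one group came near those of the other. The second phloem marker, APL (AT1G79430), a factor of phloem identity, did not pass, with 9.69 and 10.9 CPM at 100 µM and 16.3 and 11.3 CPM in the controls. Nor did 5 other phloem genes, chosen after these values were seen: HA3, PP2-A1, SWEET11, SWEET12 and NAKR1 had log2 changes from -0.15 to 0.15. ASN1 (AT3G47340), an asparagine synthetase that rises in the dark and under sugar starvation, had 447 and 492 CPM at 100 µM, against 781 and 801 CPM in the controls (log2 change -0.75 ± 0.09, adjusted p = 0.0001). Other dark-induced genes of the low energy list, DIN10 (AT5G20250), SEN1 (AT4G35770) and DIN2 (AT3G60140), did not pass, with log2 changes of -0.07 for DIN10 and -0.20 for SEN1 and levels of 9.54 and 9.94 CPM at 100 µM and 9.61 and 9.84 CPM in the controls for DIN2.

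The 3 rises of the low energy list were kelch-repeat F-box proteins, which mark phenylalanine ammonia-lyase and cytokinin response regulators for destruction: AT3G59940, AT1G80440 and AT1G15670, also named KMD4, KMD1 and KMD2. AT3G59940 had 562 and 569 CPM at 100 µM, against 192 and 225 CPM in the controls (log2 change 1.44 ± 0.11, adjusted p = 1.25e-06). AT1G80440 had 617 and 649 CPM at 100 µM and 353 and 362 CPM in the controls, and AT1G15670 227 and 235 CPM at 100 µM against 142 and 149.9 CPM in the controls. All 3 kept their groups apart. LBD37 (AT5G67420) and LBD39 (AT4G37540), nitrate-induced repressors, were the 2 calls among 17 nitrate response genes, beside 3.32% of all tested genes called. They stood at 187 and 179.7 CPM and 58 and 62.9 CPM at 100 µM, against 120.1 and 135 CPM and 39.7 and 40.9 CPM in the controls. J11 (AT4G36040), a DnaJ protein of the chloroplast, had 491 and 541 CPM at 100 µM, against 268 and 276 CPM in the controls. With any 1 of the 4 compared libraries left out, the calls of LBD37 and LBD39 ended (adjusted p of 0.0516 to 0.219). That of AT1G15670 ended without control replicate 1, 100 µM replicate 1 or 100 µM replicate 2 (adjusted p of 0.0621 to 0.104).

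Genes tied to growth fell in part. The PIF and shade response list, of genes tied to elongation of hypocotyls and petioles, summed to 238.5 and 260.0 CPM at 100 µM, against 377.8 and 403.0 CPM in the controls. Of its 12 tested members, 4 were called down and 0 up, beside 1.53% down and 1.79% up of all tested genes. PIF4 (AT2G43010), a phytochrome-interacting factor, had 1.94 and 2.64 CPM at 100 µM, against 6.69 and 5.06 CPM in the controls (log2 change -1.35 ± 0.35, adjusted p = 0.0404). IAA29 (AT4G32280), an auxin-signalling repressor induced by PIF factors, had 1.19 and 2.49 CPM at 100 µM and 4.22 and 6.7 CPM in the controls. BEE3 (AT1G73830), a factor induced by brassinosteroid, had 47.4 and 50.3 CPM at 100 µM, against 68.5 and 66.1 CPM in the controls. The levels of PIF4 and IAA29 were low, a few CPM, and the groups of each lay within a few CPM of each other. XTH15 (AT4G14130), a xyloglucan transferase, supplied most of the summed difference, with 78.3 and 86.4 CPM at 100 µM, against 174 and 161 CPM in the controls. Of the members not called, HFR1 (AT1G02340) had 7.16 and 7.3 CPM at 100 µM and 6.26 and 6.56 CPM in the controls, and PIL6 (AT3G59060) 26.7 and 26.4 CPM at 100 µM and 31.3 and 39.5 CPM in the controls. The calls of PIF4 and BEE3 ended without any 1 of the 4 compared libraries (adjusted p of 0.0901 to 0.37). That of IAA29 ended without control replicate 2, 100 µM replicate 1 or 100 µM replicate 2 (adjusted p of 0.129 to 0.405). With 1 library left out, the called members numbered 3 without control replicate 1 and 1 without each of the other 3 libraries.

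Calls in several cell wall families were mostly downward. Of 26 xyloglucan transferases, which cut and rejoin the xyloglucan that tethers cellulose, 7 were called down and 1 up, against 1.53% and 1.79% of all tested genes. XTH15, described with the PIF and shade response, is among the 7, so the 2 counts are not separate. The 7 falls became 4, 3, 3 and 4 without control replicate 1, control replicate 2, 100 µM replicate 1 and 100 µM replicate 2, in that order, and 4 with DESeq2. XTH33 (AT1G10550) had 32.4 and 28 CPM at 100 µM, against 69.9 and 69.3 CPM in the controls, and XTH16 (AT3G23730) 119.9 and 129.9 CPM at 100 µM against 254 and 218 CPM in the controls. XTH31 (AT3G44990) was the exception, with 36.8 and 33.6 CPM at 100 µM and 11.5 and 11.8 CPM in the controls (log2 change 1.60 ± 0.14, adjusted p = 4.81e-06). The groups did not overlap in these 3 genes. CSLC04 (AT3G28180), which makes the xyloglucan backbone, had 69.5 and 72.9 CPM at 100 µM, against 134 and 131 CPM in the controls (log2 change -0.90 ± 0.09, adjusted p = 2.3e-05). AGP18 (AT4G37450) and AGP17 (AT2G23130), arabinogalactan proteins of the cell surface, had 50.1 and 54.4 CPM and 55.3 and 61.1 CPM at 100 µM, against 99.5 and 90.2 CPM and 99.5 and 96.5 CPM in the controls, and were 2 of 5 falls among 39 arabinogalactan proteins, none of which was called up. Without any 1 of the 4 compared libraries, 2 of the 5 falls were called. The calls of XTH33, XTH16, XTH31, CSLC04, AGP18 and AGP17 were kept in all 4 leave-one-out fits.

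Calls among pectin-degrading enzymes and water channels were few and downward. Of 45 polygalacturonases and pectate lyases, which break down pectin, 6 were called down and 0 up, beside 1.53% of all tested genes down and 1.79% up. The 6 became 4, 1, 0 and 0 without control replicate 1, control replicate 2, 100 µM replicate 1 and 100 µM replicate 2, in that order. Of 43 pectin methylesterases and their inhibitors, 2 were called down and 0 up, 20 had a positive log2 change, and their summed level was 2059 and 2050 CPM at 100 µM, against 2040 and 2121 CPM in the controls. AT3G07010 had 31.9 and 31.8 CPM at 100 µM, against 54.1 and 56.3 CPM in the controls, and PMR6 (AT3G54920), a pectate lyase-like protein, 88.9 and 96 CPM at 100 µM against 128 and 133 CPM in the controls. Of 27 aquaporins, which pass water through membranes, 3 of the plasma membrane type were called down and 0 up, and with 1 of the 4 compared libraries left out 0 or 1 were. PIP3 (AT4G35100) had 666 and 699 CPM at 100 µM, against 995 and 924 CPM in the controls, PIP1;5 (AT4G23400) 242 and 241 CPM at 100 µM against 353 and 349.6 CPM in the controls, and PIP1C (AT1G01620) 577 and 601 CPM at 100 µM against 834 and 778 CPM in the controls. Each was lower in both 100 µM libraries. Of 20 expansins, which loosen walls at low pH, EXPA8 (AT2G40610) and EXLA1 (AT3G45970) fell, by 1.36 and 0.69 on the log2 scale. Of 25 cellulose synthases and related proteins 1 was called down and 1 up: CESA2 (AT4G39350) had 158 and 153 CPM at 100 µM, against 213 and 194 CPM in the controls, and CSLB03 (AT2G32530), a cellulose synthase-like protein, had 24.8 and 25.5 CPM at 100 µM and 13.4 and 16.7 CPM in the controls. TUB5 (AT1G20010), a beta-tubulin, had 177 and 183 CPM at 100 µM, against 227 and 228 CPM in the controls. The changes in CESA2, CSLB03 and TUB5 were under 2-fold. Leaving out any 1 of the 4 compared libraries ended the calls of PMR6, PIP3, PIP1;5, PIP1C, CESA2 and TUB5, with adjusted p of 0.0567 to 0.391. That of AT3G07010 ended without 100 µM replicate 1 or 100 µM replicate 2 (adjusted p of 0.0641 to 0.0799). That of EXPA8 ended without 100 µM replicate 1 (adjusted p of 0.0522). Those of EXLA1 and CSLB03 ended without control replicate 1, 100 µM replicate 1 or 100 µM replicate 2 (adjusted p of 0.107 to 0.279).

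**Figure D5:**
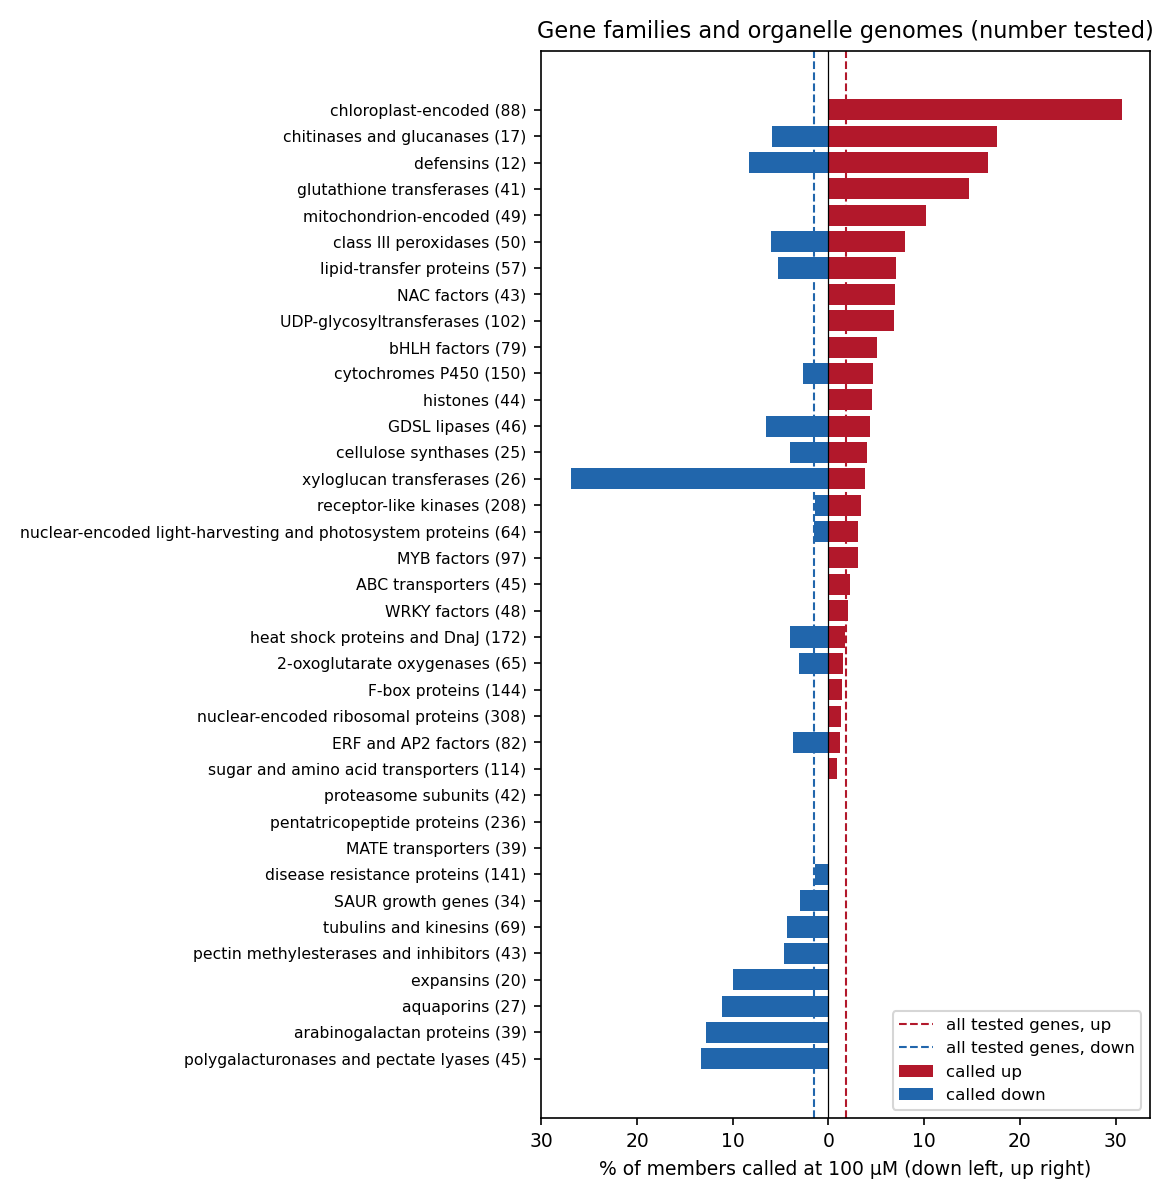
Bars give the percentage of tested members of each gene family or organelle genome called at 100 µM, up to the right (red) and down to the left (blue), with the number tested in brackets and dashed lines for all tested genes (1.79% up, 1.53% down). Xyloglucan transferases reach furthest to the left and chloroplast-encoded genes furthest to the right; the smallest families shown have 12 members, where 1 call makes a long bar.

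Genes of a triterpene pathway were among the falls. THAS1 (AT5G48010) makes thalianol, a root triterpene, and CYP708A2 (AT5G48000) and CYP705A5 (AT5G47990) oxidise it in a gene cluster of the same chromosome. THAS1 had 40.6 and 41.2 CPM at 100 µM, against 78.9 and 85.4 CPM in the controls (log2 change -1.01 ± 0.15, adjusted p = 0.000776). CYP708A2 had 36.2 and 32.9 CPM at 100 µM and 63.3 and 70.4 CPM in the controls, and CYP705A5 33.4 and 36.5 CPM at 100 µM against 57.9 and 60.9 CPM in the controls. In these 3 genes the libraries of the groups did not meet. The calls of THAS1 and CYP708A2 were kept in all 4 leave-one-out fits and that of CYP705A5 (adjusted p = 0.0113) in 0. The other genes of the cluster were looked at after these values were seen. The acyltransferase genes AT5G47980 and AT5G47950 had log2 changes of -0.92 and -0.56 and did not pass (adjusted p = 0.328 and 0.151). MRN1 (AT5G42600), marneral synthase of a different triterpene cluster, had 2.68 and 2.33 CPM at 100 µM and 4.51 and 6.01 CPM in the controls (adjusted p = 0.0999). The genes AT5G47970 and RABA4C (AT5G47960), which lie within or beside the cluster, had log2 changes of -0.19 and -0.87 and did not pass either. At 1000 µM THAS1 had 15 and 25.4 CPM. Since these are genes of roots, the root markers bear on them: their summed level at 100 µM and in the controls is given above, 0 of the 12 tested were called and 11 had a negative log2 change, and the part of root tissue in the triterpene result was not tested.

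A few genes were called in the lists of the clock, sulfur, phosphate and abscisic acid, beside 3.32% of all tested genes. The calls were 2 up and 1 down of 19 clock genes and 0 up and 2 down of 14 sulfur genes. For phosphate they were 1 up and 1 down of 12, and for abscisic acid 1 up and 0 down of 18. Of 19 clock genes, ELF4 (AT2G40080), of the evening complex, had 61.1 and 61.8 CPM at 100 µM, against 40.2 and 40 CPM in the controls, BOA (AT5G59570) 40.1 and 38.7 CPM at 100 µM against 29.5 and 26.6 CPM in the controls, and TCP11 (AT5G08330) 41.3 and 39.5 CPM at 100 µM against 65.8 and 58.1 CPM in the controls. The first 2 were higher and TCP11 lower. TOC1 (AT5G61380), a core clock gene, had 162 and 164 CPM at 100 µM and 161 and 161 CPM in the controls. ATSDI1 (AT5G48850), induced by lack of sulfur, had 5.67 and 4.35 CPM at 100 µM, against 13 and 10.8 CPM in the controls, and SHM7 (AT1G36370), also of the sulfur list of 14 genes, 75.5 and 64.6 CPM at 100 µM against 101 and 99.2 CPM in the controls. The 2 were the falls of that list, while the sulfate reductase APR1 (AT4G04610) had 104 and 104 CPM at 100 µM and 98.4 and 111 CPM in the controls. RNS1 (AT2G02990), a ribonuclease of phosphate starvation, had 25.9 and 19.9 CPM at 100 µM and 11.8 and 11.5 CPM in the controls, whereas PPCK1 (AT1G08650), a kinase of phosphoenolpyruvate carboxylase, had 4.62 and 4.97 CPM at 100 µM and 10.5 and 10.8 CPM in the controls. RD26 (AT4G27410), a NAC factor of dehydration and abscisic acid, was the single call among 18 abscisic acid genes, with 39.7 and 38.5 CPM at 100 µM, against 16.2 and 21.2 CPM in the controls. The DREB-type factor tny (AT5G25810) had 17 and 15.8 CPM at 100 µM and 6.4 and 5.33 CPM in the controls. It is of the ERF and AP2 family, where 1 of 82 tested members was called up and 3 down. With any 1 of the 4 compared libraries left out, the calls of ELF4, BOA, SHM7 and PPCK1 ended (adjusted p of 0.0547 to 0.332). Those of TCP11 and ATSDI1 ended without control replicate 1, 100 µM replicate 1 or 100 µM replicate 2 (adjusted p of 0.0594 to 0.179). That of RNS1 ended without control replicate 1, control replicate 2 or 100 µM replicate 1 (adjusted p of 0.0706 to 0.232). Among 17 jasmonate genes, the synthesis gene LOX2 (AT3G45140) came nearest to a call, with 302 and 258 CPM at 100 µM and 318 and 416 CPM in the controls (adjusted p = 0.107).

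Ribosomal protein genes and organelle genes had mostly positive changes. The 308 nuclear-encoded ribosomal proteins tested had a median log2 change of 0.15 and 274 were positive, but 4 were called up and 0 down, beside 1.79% of all tested genes called up. Their summed level was 41570 and 42100 CPM at 100 µM, against 37570 and 38260 CPM in the controls. When only the 4 compared libraries were fitted, 53 were called up and 1 down, beside 852 up and 845 down over all genes in that fit. With 1 of the 4 compared libraries left out 0 or 1 were called up, and with the replicate block 1. Of 88 chloroplast-encoded genes, 27 were called up and 0 down (1.79% and 1.53% of all tested genes), with a median of 0.63, and chloroplast genes took 1.30% and 1.43% of all counts at 100 µM, against 1.01% and 1.15% in the controls. That count was 1 without control replicate 1, 13 without control replicate 2, 3 without 100 µM replicate 1, 1 without 100 µM replicate 2, 11 with DESeq2, 20 with the replicate block, 7, beside 1 down, with a robust prior, and 51, beside 9 down, when only the 4 compared libraries were fitted. Of the chloroplast genes, ATCG00020 was the single one kept in all 4 leave-one-out fits, with 1518 and 2544 CPM at 100 µM, against 450.4 and 628 CPM in the controls. The nuclear rRNA gene AT3G41768, annotated as 18S ribosomal RNA and examined after its value was seen, had 323 and 459.8 CPM at 100 µM and 134 and 161 CPM in the controls (log2 change 1.41 ± 0.19, adjusted p = 0.000269). Another 18S gene, AT2G01010, had 10.9 and 11.5 CPM at 100 µM and 8.73 and 7.65 CPM in the controls (adjusted p = 0.349). Together, the 11 nuclear genes with the words ribosomal RNA in their product name took 0.0480% and 0.0618% of the counts at 100 µM. In the controls they took 0.0287% and 0.0318%. Such a match by name can also take in proteins that act on rRNA. The 49 mitochondrial genes tested had 5 calls, all up. These became 1, 2, 1 and 0 without control replicate 1, control replicate 2, 100 µM replicate 1 and 100 µM replicate 2, in that order, 0 with DESeq2 and 2 with the replicate block or with a robust prior. RNA of AT3G41768 and of both organelles, which carries no long poly(A) tails, took a larger share of the counts in both 100 µM libraries than in both controls. The mitochondrial share was 0.0681% and 0.0833% at 100 µM, against 0.0454% and 0.0489% in the controls. With organelle genes removed, 605 genes were called, 578 of them among the 610, of which 32 were organelle genes. The part of such RNA in the other results was not tested further. Of 21 nuclear genes of plastid transcription, FLN1 (AT3G54090) and FSD3 (AT5G23310) rose, to 50.1 and 54.4 CPM and 30.1 and 28.1 CPM at 100 µM, against 38.7 and 34.8 CPM and 19.9 and 19.5 CPM in the controls. The calls of FLN1 and FSD3 ended without any 1 of the 4 compared libraries (adjusted p of 0.107 to 0.329).

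Set beside the contrast of 1000 µM with 100 µM, which shares the 100 µM libraries, 298 of the 610 called genes went further in the same direction and 22 were called in the opposite direction there. Of the 22, 6 were up at 100 µM and lower again at 1000 µM, and 16 were down at 100 µM and higher again at 1000 µM (in that contrast 7.3% of all tested genes were called down and 8.65% up). AT1G15405 stood at 2.33 and 2.19 CPM in the controls, 15.8 and 29.4 CPM at 100 µM and 8.72 and 5.56 CPM at 1000 µM. AT2G31141 had 1.16 and 1.91 CPM, 6.56 and 13.8 CPM and 3.74 and 4.42 CPM in the same order of doses. AT3G22235, a cysteine-rich stress tolerance protein, had 13.5 and 13.3 CPM, 28.9 and 26.3 CPM and 17.7 and 8.6 CPM. These 3 genes were highest at 100 µM. NRT1.8 (AT4G21680), which takes nitrate out of the xylem, had 10.3 and 8.61 CPM in the controls, 4.32 and 4.97 CPM at 100 µM and 8.45 and 8.47 CPM at 1000 µM. GA2OX2 (AT1G30040), which inactivates gibberellins, had 7.71 and 9.02 CPM, 3.58 and 4.82 CPM and 9.69 and 7.33 CPM across the doses, and AT1G19230, annotated as of the riboflavin synthase-like superfamily, 7.71 and 8.06 CPM, 4.18 and 3.11 CPM and 7.06 and 7.71 CPM. The last 3 were lowest at 100 µM, like the heat shock genes HSP90.1, HSP70 and MBF1C, which are also among the 22. Leaving out any 1 of the 4 compared libraries ended the calls of AT3G22235, NRT1.8, GA2OX2 and AT1G19230, with adjusted p of 0.0677 to 0.395.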

How the data were processed

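Per the labels, total RNA from rosette leaves was extracted with an RNeasy kit and sequenced after Illumina library preparation. The deposited values are whole-number read counts per gene, not normalised by the authors. The build was TAIR10 and the listed tools were TopHat2 2.0.12, Bowtie2 2.2.3, DESeq 1.18.0 and HTSeq 0.6.1, per the submitters' processing notes; the strand setting is not given in the sources used here, so overlapping genes cannot be told apart. Among the called genes named here these are FER1, CYP81D11, MBF1C, FRK1, PMR6, AT3G59940, GSTU7, ABCG1, AT3G04300, XTH15, bHLH38, AT2G31141, BHLH101, BOA, EXLA1, AT3G07010, HSP101, NRT1.8, AT1G19230, EP3 and ASN1.

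Counts were tested with edgeR 4.0.16 in R 4.3.3 (filterByExpr, TMM, glmQLFit and glmQLFTest, two-sided, group as the only term, Benjamini-Hochberg over 18380 genes). All 6 libraries were fitted so that the groups share an estimate of the spread, with 3 residual and 14.1 prior degrees of freedom and a biological coefficient of variation of 7.78%. Errors of log2 changes are standard errors. CPM are computed here with TMM-scaled library sizes. The counting intervals cover counting error only. Of the identifiers, 31912 matched RefSeq's TAIR10.1 annotation and 766 did not; promoters are its 250 bases before each gene, so they rest on that assembly. The script was tested on simulated data.

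The members and lists were chosen with earlier results of these data known. Named are the 15 largest rises and falls kept in every leave-one-out fit with a mean of at least 2 CPM, up to 3 called members of each list or family, the 6 largest changes with the opposite call at 1000 µM, the best marker of each tissue, and listed genes shown beside a called one. Phloem, rRNA and triterpene cluster genes were added after their values were seen. Alternatives were DESeq2 1.42.0, RLE and upper-quartile factors, other filters, the 4 compared libraries alone, a replicate block, a robust prior, organelle genes removed, a minimum change and leaving out each library.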

Additional observations from a re-analysis of the deposited data

How the results depend on the processing

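In the 133 called results among the named genes no direction reversed under any alternative tried. The count of called genes moved from 610 (329 up, 281 down) to 335 (206 up, 129 down) with DESeq2, to 1091 (537 up, 554 down) without a filter, to 1697 (852 up, 845 down) with only the control and 100 µM libraries, and to 165 (110 up, 55 down) when a change beyond 1.2-fold was tested. Leaving out 1 library gave 101 to 1757 called genes, 74 to 896 up and 27 to 864 down, the highest counts being those without a 1000 µM library; the count of changes of at least 2-fold, 131 in all, ranged from 60 to 184. RLE factors gave 597, upper-quartile factors 618, a stricter filter 607, a robust prior 569 and removal of organelle genes 605. The cause of these shifts was not tested. Over all tested genes, the difference between replicates 2 and 1 was little correlated between 100 µM and control (r = 0.0277). The correlation was -0.0311 for 1000 µM with control and -0.0662 for 1000 µM with 100 µM. Such a correlation over all genes cannot show whether same-numbered libraries share a batch, which the labels do not state. With the replicate block 446 genes were called, of which 442 are among the 610. Of the 133 named calls, 97 were kept with DESeq2 and 73 beyond 1.2-fold. With 2 libraries a group an exact permutation test of a single value cannot go below p = 0.333.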
